A study of Bos taurus with 9 samples.

Results

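The genes described here are 9 regulators of the p53 response and of cyclin-dependent kinases (CDKs) in cloned cattle embryos. They are MDM2, MDM4, CDKN1A, CDKN1B, CDKN2C, GADD45A, GADD45B, SESN1 and SESN2, chosen by symbol from 16129 genes present in all 9 expression files. Each symbol named 1 row in every file, and each is a protein-coding gene in RefSeq annotation of Bos taurus. All embryos were clones from somatic cell nuclear transfer (SCNT): an egg stripped of its own chromosomes received a body cell nucleus. RNA was sequenced from 3 groups of 3 libraries. KDM6A morulae came from reconstructed embryos that received mRNA for wild-type bovine KDM6A, an enzyme that takes methyl groups off lysine 27 of histone H3 (H3K27), at 1 h after activation. Control morulae were not injected, so injection itself and the KDM6A mRNA cannot be told apart. Morulae, solid balls of cells that go on to form blastocysts, were taken on day 5 in pools of 5. The remaining group was 8-cell SCNT embryos without KDM6A mRNA, whose libraries the submitters took from another series, so stage and series cannot be told apart. The breed given for every group is Holstein, and the fibroblast donor cells named in the protocols came from 1 female fetus. A pool mixes embryos, and nothing states that replicate pools were collected on different days, so p-values measure only the spread between these libraries, which may be technical.

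The transcription factor p53 is stabilised when DNA is damaged or cells are stressed, and switches on genes that stop the cell cycle, repair DNA or start cell death. MDM2 is a ubiquitin ligase that marks p53 for degradation and is itself switched on by p53, which closes a feedback loop, and MDM4 is its relative that blocks p53 on chromatin. CDKN1A (p21) is the classical p53-induced inhibitor of CDKs, CDKN1B (p27) restrains CDK2 when cells leave the cycle, and CDKN2C (p18) binds CDK4 and CDK6. The GADD45 proteins are small stress-induced proteins that act in cell cycle arrest and DNA repair, and the sestrins SESN1 and SESN2 dampen growth signalling through mTORC1. In the early embryo, p53 signalling is known as a brake on cells with damaged or poorly reprogrammed genomes.

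Levels are FPKM, sequenced fragments scaled to transcript length and library size, so genes of different length can be compared within a library. Depth is unknown, and errors are those among the 3 libraries in each group. Fold changes on the log2 scale are of FPKM + 1, which understates the change of low genes, and those written with "-fold" are ratios of mean FPKM. KDM6A transcript, the check of the labels, stood at 35.65, 87.58 and 79.44 FPKM in KDM6A morulae and at 10.72 to 13.86 FPKM in control morulae. KDM6A morula replicate 1 thus had the lowest level of the 3 injected pools, and across 16129 genes it correlated at 0.989 to 0.99 with control morulae, against 0.983 and 0.986 with the other KDM6A morulae, so the calls that change without it are given below. Embryo markers such as TFAP2C, CDH1 and NANOG were present in all libraries, while the keratins KRT8 and KRT18 were below 1 FPKM in 8-cell embryos. The 9 measured oocyte and maternal markers summed to 110 to 191 FPKM in KDM6A morulae, 20.6 to 458 FPKM in control morulae and 3732 to 9042 FPKM in 8-cell embryos. Of these markers 8 of 8 tested were called lower in morulae of either kind than in 8-cell embryos. Over all genes 27.1% were called lower in control morulae and 25.6% in KDM6A morulae. Donor fibroblast markers summed to 97.8 to 134 FPKM in KDM6A morulae, 114 to 177 FPKM in control morulae and 28.9 to 75.6 FPKM in 8-cell embryos, and its members differed. FN1 was at 49.8 to 78.41 FPKM in KDM6A morulae, 86.2 to 123.67 FPKM in control morulae and 0.16 to 1.5 FPKM in 8-cell embryos, and DCN and PDGFRA were above 7 FPKM in every library, whereas COL3A1 was at or below 0.01 FPKM in all libraries but 8-cell replicate 2, at 2.48 FPKM. Cumulus and granulosa markers summed to 7.67 to 12.6 FPKM in KDM6A morulae, 12.1 to 14.6 FPKM in control morulae and 18.95 to 37.2 FPKM in 8-cell embryos, with HAS2 at 5.57 to 19.82 FPKM in 8-cell embryos, STAR at 3.52 to 10.82 FPKM over all 9 libraries and CYP19A1 at or below 0.2 FPKM in each. The part of such cells or of inherited maternal RNA in the results below was not tested, and in pooled embryos fewer cells of a type cannot be told apart from less RNA per cell.

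**Figure D1:**
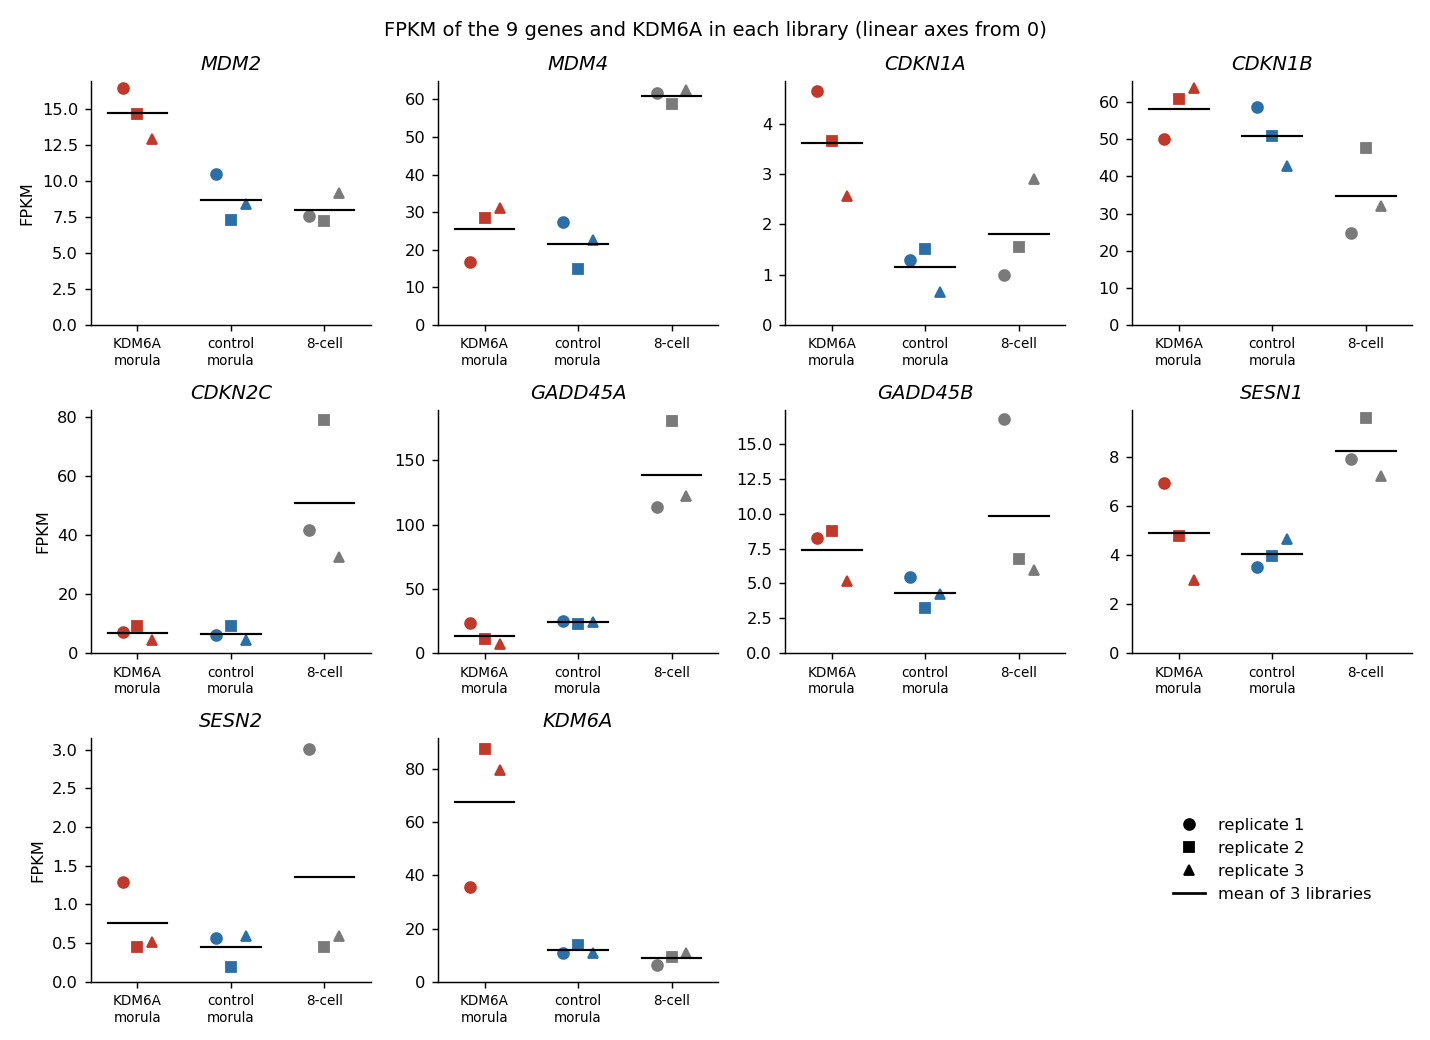
FPKM (linear y axes from 0) of the 9 genes and KDM6A in KDM6A morulae, control morulae and 8-cell embryos; each symbol is 1 library and each bar the mean of 3. MDM4, CDKN2C and GADD45A were highest in all 3 8-cell libraries, and the 3 KDM6A morulae lay above the 3 control morulae for MDM2 and CDKN1A.

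KDM6A morulae were compared with control morulae, which were not injected, so effects of injection and of KDM6A mRNA cannot be told apart. None of the 9 passed the test. CDKN1A and MDM2, both direct p53 targets, were the 2 genes whose groups did not overlap, at 3.15-fold and 1.69-fold higher mean levels in KDM6A morulae. GADD45A, which is also p53-inducible, was the only tested gene with a negative fold change, and the groups overlapped for SESN1, another p53 target. Of the p53 targets outside the 9 that were tested, groups did not overlap for FAS, higher in KDM6A morulae, and SESN3, lower (means 1.2 and 1.67 FPKM). DDB2 and TP53I3, below the filter here, were also lower without overlap, at means of 0.517 and 0.69 FPKM against 0.73 and 0.91 FPKM. Of 9 genes 8 reached the expression filter, at least 1 FPKM in 3 of the 6 libraries compared, and 0 were called by limma at an adjusted p under 0.05, where 0.164% of all 9777 genes were called, 0.123% higher and 0.0409% lower. At an unadjusted p under 0.05 the count was 4 of 8, against 12.7% of all genes, and the groups did not overlap for 2 of 8, against 15.7% of all genes, 7.1% higher and 8.61% lower. The median log2 fold change was 0.21 over the 8 genes and -0.012 over all genes. Without KDM6A morula replicate 1, 725 of all genes and 1 of the 8, GADD45A, were called. Of 9 embryo identity markers 0 were called in this comparison and 4 had an unadjusted p under 0.05, and without KDM6A morula replicate 1, 1 was called higher and 3 lower. GATA3, a trophoblast transcription factor, had 3.29, 2.33 and 2.56 FPKM in KDM6A morulae, against 7.04, 7.56 and 8.35 FPKM in control morulae (limma adjusted p = 0.0561). For CDH1, KLF17 and KRT8 the ratio of means, KDM6A over control morulae, was 1.62, 1.96 and 0.594 (limma adjusted p = 0.211, 0.283 and 0.392), and the part of such differences in the results was not tested.

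Against 8-cell embryos 5 of the 9 transcripts fell in control morulae and 3 in KDM6A morulae. In control morulae MDM4, CDKN2C, GADD45A, GADD45B and SESN1 were lower than in 8-cell embryos and none of the 9 was higher. These were 5 of 8 tested, where 27.1% of all 10048 genes were called lower, 42.7% higher and 69.8% either way. In KDM6A morulae MDM4, CDKN2C and GADD45A were lower than in 8-cell embryos and MDM2 and CDKN1B higher, 5 of 8 tested against 66.7% of all 10024 genes called, 25.6% lower and 41.1% higher. Groups did not overlap for 5 of 8 genes in control morulae, all lower, against 74.5% of all genes, 29.1% lower and 45.4% higher. In KDM6A morulae they did not overlap for 6 of 8, 2 higher and 4 lower, against 71.3% of all genes, 43.2% higher and 28.2% lower. The share of the 8 called either way was thus near that of all genes, and without KDM6A morula replicate 2 the calls in KDM6A morulae numbered 3 of 8. The median log2 fold change over the 8 genes was -0.89 in control morulae and -0.48 in KDM6A morulae, against 0.35 and 0.34 over all genes. That all-gene median depended on scaling, at 0.19 (TPM), 0.069 (quantile normalization) and 0.097 (median-of-ratios) for control morulae and 0.24, 0.074 and 0.11 for KDM6A morulae, so directions are relative to it. The 3 comparisons share libraries with each other and are not independent.

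**Figure D2:**
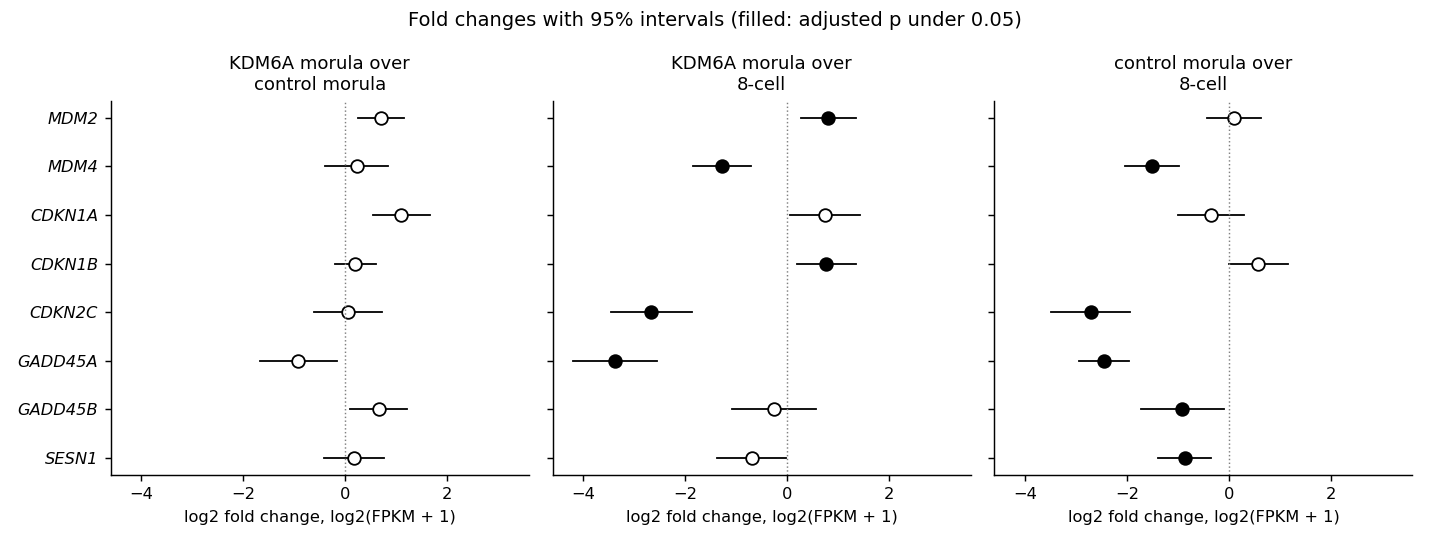
Log2 fold changes on the log2(FPKM + 1) scale with 95% intervals for the 8 tested genes, for KDM6A over control morulae, KDM6A morulae over 8-cell embryos and control morulae over 8-cell embryos; filled points passed an adjusted p of 0.05. No point is filled between the morula groups, and CDKN2C and GADD45A lie far left of 0 in both stage comparisons.

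MDM2 had 16.5, 14.67 and 12.95 FPKM in KDM6A morulae, against 10.5, 7.27 and 8.38 FPKM in control morulae and 7.59, 7.19 and 9.16 FPKM in 8-cell embryos. The 3 KDM6A morulae were the 3 highest libraries, and control morulae and 8-cell embryos overlapped. Its log2 fold change between KDM6A and control morulae was 0.70 (95% interval 0.24 to 1.16, unadjusted p = 0.00639, limma adjusted p = 0.276). A two-sided exact permutation test on MDM2 by itself gave p = 0.1, the lowest value possible with 3 libraries against 3. Without KDM6A morula replicate 1 the log2 fold change was 0.62 (limma adjusted p = 0.105). Relative to 8-cell embryos MDM2 was 1.84-fold higher in KDM6A morulae (log2 fold change 0.81, SE 0.24, limma adjusted p = 0.0126), a call lost under quantile normalization (adjusted p = 0.0709), under median-of-ratios scaling (0.0513) or without KDM6A morula replicate 2 (0.0523). In control morulae it was not called against 8-cell embryos, at a log2 fold change of 0.11 (95% interval -0.42 to 0.63), whose sign turned under all 3 rescalings and without control morula replicate 1.

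MDM4 had 16.68, 28.31 and 31.12 FPKM in KDM6A morulae, against 27.24, 14.82 and 22.47 FPKM in control morulae and 61.70, 58.74 and 62.50 FPKM in 8-cell embryos. Every 8-cell library was above every morula, and the morula groups overlapped. MDM4 fell by 1.28 on the log2 scale in KDM6A morulae (SE 0.26, limma adjusted p = 0.00115) and by 1.5 in control morulae (SE 0.24, limma adjusted p = 0.000326) relative to 8-cell embryos, and both calls held under all alternatives. MDM4 was not called in KDM6A over control morulae, at a log2 fold change of 0.22 (95% interval -0.39 to 0.84), and its sign turned without control morula replicate 2. The MDM2 to MDM4 ratio, which does not depend on the scaling of a library, was 0.989, 0.518 and 0.416 in KDM6A morulae, 0.386, 0.491 and 0.373 in control morulae and 0.123, 0.122 and 0.147 in 8-cell embryos. Morulae of both kinds therefore had higher ratios than all 8-cell libraries, while the 2 morula groups overlapped.

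CDKN1A, the p53-induced CDK inhibitor, had 4.66, 3.67 and 2.56 FPKM in KDM6A morulae, against 1.30, 1.51 and 0.65 FPKM in control morulae and 0.99, 1.56 and 2.90 FPKM in 8-cell embryos. All KDM6A morulae were above all control morulae, while 8-cell replicate 3 exceeded the lowest KDM6A morula. In both comparisons of KDM6A morulae, CDKN1A passed the filter of 1 FPKM in 3 libraries through those morulae, the group where its mean was higher. At its low level, CDKN1A stood above 51.3% to 57.6% of genes in KDM6A morulae, 37.8% to 44.9% in control morulae and 44.2% to 56.8% in 8-cell embryos. The log2 fold change between KDM6A and control morulae was 1.1 (95% interval 0.54 to 1.66, unadjusted p = 0.00128, limma adjusted p = 0.158), with an exact two-sided permutation p = 0.1 for the gene alone. Over the alternatives it was between 0.92 and 1.61, with adjusted p-values from 0.0577 to 0.583. Against 8-cell embryos it was 0.75 in KDM6A morulae (limma adjusted p = 0.0523) and -0.35 in control morulae (adjusted p = 0.296). The first of these passed with all 9 libraries in the fit (adjusted p = 0.035) or without 8-cell replicate 3 (0.0148). Over all alternatives this fold change lay between 0.38 and 1.05, with a limma adjusted p of up to 0.298.

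CDKN1B was the most abundant of the 3 CDK inhibitors in morulae, at 49.99, 60.95 and 63.78 FPKM in KDM6A morulae and 58.85, 50.79 and 42.87 FPKM in control morulae, against 24.63, 47.68 and 32.03 FPKM in 8-cell embryos. The morula groups overlapped, and 8-cell replicate 2 reached into the range of control morulae. CDKN1B was 1.67-fold higher in KDM6A morulae than in 8-cell embryos (log2 fold change 0.77, SE 0.26, limma adjusted p = 0.0224). That call was lost with no filter, under median-of-ratios scaling or quantile normalization (adjusted p up to 0.12), and without KDM6A morula replicate 2 or 3 or 8-cell replicate 1 or 3 (up to 0.0779). In control morulae the log2 fold change against 8-cell embryos was 0.57 (95% interval -0.0028 to 1.15, limma adjusted p = 0.0703), which passed with all 9 libraries in the fit (0.048) and, at 0.82, without 8-cell replicate 2 (0.00911). Over all alternatives this change lay between 0.30 and 0.82, with a limma adjusted p of up to 0.326. The log2 fold change of KDM6A over control morulae was 0.20 (95% interval -0.21 to 0.60).

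CDKN2C showed the opposite pattern, with 7.10, 9.40 and 4.35 FPKM in KDM6A morulae and 6.14, 9.29 and 4.48 FPKM in control morulae, against 41.62, 78.81 and 32.48 FPKM in 8-cell embryos. No morula came near the lowest 8-cell library, and the morula groups were almost superimposed. CDKN2C fell by 2.66 on the log2 scale in KDM6A morulae (SE 0.36, limma adjusted p = 8.49e-05) and by 2.71 in control morulae (SE 0.35, limma adjusted p = 9.2e-05), 7.33-fold and 7.68-fold lower mean levels. Both calls held under all alternatives, including without 8-cell replicate 2, the library with the highest CDKN2C level. For KDM6A over control morulae the log2 fold change was 0.054 (95% interval -0.61 to 0.72).

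The make-up of these 3 CDK inhibitor transcripts therefore differed between morulae and 8-cell embryos, where stage and series cannot be told apart. Other CDK inhibitors were not part of the sum. Of the summed FPKM of the 3 genes, CDKN1B held 81% to 90.2% in KDM6A morulae, 82.5% to 89.3% in control morulae and 36.6% to 47.5% in 8-cell embryos. CDKN2C held 6.15% to 12.7% in KDM6A morulae, 9.26% to 15.1% in control morulae and 48.2% to 61.9% in 8-cell embryos. CDKN1A held 3.62% to 7.55% in KDM6A morulae, 1.35% to 2.45% in control morulae and 1.22% to 4.30% in 8-cell embryos. Its share was higher in every KDM6A morula than in every control morula, but it is computed from the CDKN1A levels given above and is not a separate observation.

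**Figure D3:**
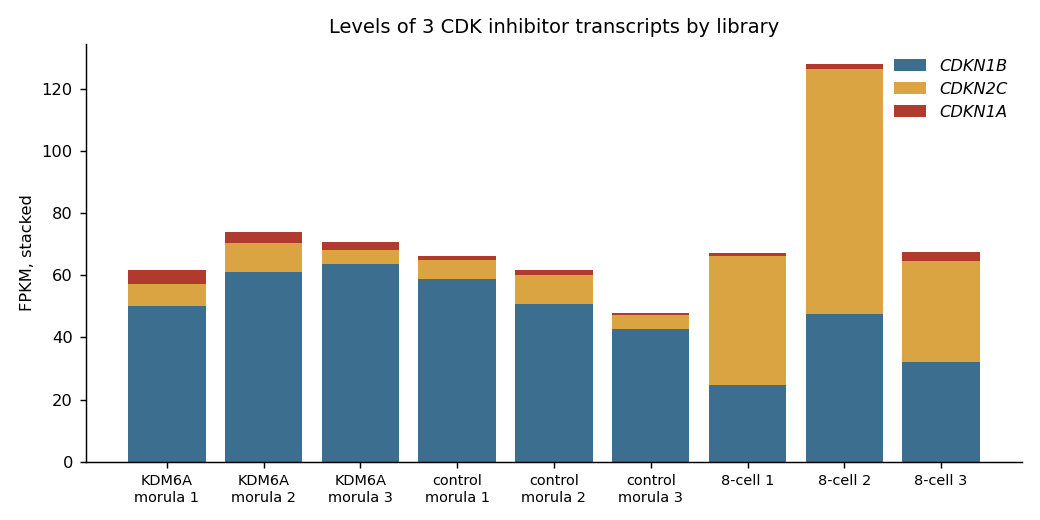
Stacked bars of CDKN1B, CDKN2C and CDKN1A levels (FPKM, axis from 0) in each of the 9 libraries. CDKN1B fills most of each morula bar, CDKN2C fills 48.2% to 61.9% of each 8-cell bar, and the bar of 8-cell replicate 2 is the tallest at 128 FPKM.

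GADD45A, a p53- and stress-inducible gene, had 23.75, 10.72 and 6.97 FPKM in KDM6A morulae, against 24.91, 22.69 and 24.63 FPKM in control morulae and 113.79, 180.89 and 122.35 FPKM in 8-cell embryos. The control morulae were tightly grouped, KDM6A morula replicate 1 lay within their range and the other KDM6A morulae lay below it. Relative to 8-cell embryos GADD45A fell by 3.37 on the log2 scale in KDM6A morulae (SE 0.37, limma adjusted p = 2.41e-05) and by 2.45 in control morulae (SE 0.22, limma adjusted p = 1.05e-05), 10.1-fold and 5.77-fold lower mean levels, and both calls held under all alternatives. KDM6A over control morulae gave a log2 fold change of -0.92 (95% interval -1.68 to -0.17, unadjusted p = 0.0209, limma adjusted p = 0.317). Without KDM6A morula replicate 1 it was -1.37 and passed (limma adjusted p = 0.00922), the only call among the 9 genes in this comparison under any alternative; without the other libraries in turn the adjusted p was 0.327 to 0.817.

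GADD45B, the relative of GADD45A induced by inflammatory and growth signals, had 8.23, 8.79 and 5.20 FPKM in KDM6A morulae, against 5.43, 3.24 and 4.27 FPKM in control morulae and 16.79, 6.75 and 5.99 FPKM in 8-cell embryos. The morula groups touched at 5.20 and 5.43 FPKM, and 8-cell replicate 1 stood far above the other libraries. The log2 fold change between KDM6A and control morulae was 0.65 (95% interval 0.10 to 1.21, unadjusted p = 0.0253, limma adjusted p = 0.324). Relative to 8-cell embryos GADD45B fell by 0.92 in control morulae (SE 0.36, limma adjusted p = 0.0454), a call lost without control morula replicate 2 (log2 fold change -0.76, adjusted p = 0.145) or 3 (0.0945), without 8-cell replicate 1 (-0.49, 0.136), with a pseudocount of 0.1 (0.0554) or with no filter (0.129). In KDM6A morulae the log2 fold change against 8-cell embryos was -0.26 (95% interval -1.08 to 0.56) and its sign turned without 8-cell replicate 1. The GADD45A to GADD45B ratio was 2.89, 1.22 and 1.34 in KDM6A morulae, 4.59, 7.0 and 5.77 in control morulae and 6.78, 26.8 and 20.4 in 8-cell embryos. Every KDM6A morula was below every control morula in this ratio, which was chosen after the values were seen, and the highest control morula exceeded the lowest 8-cell library.

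SESN1, a p53 target, had 6.96, 4.78 and 2.98 FPKM in KDM6A morulae, against 3.54, 3.96 and 4.68 FPKM in control morulae and 7.93, 9.62 and 7.23 FPKM in 8-cell embryos. All 8-cell libraries were above all morulae, and KDM6A morulae spread on both sides of the controls. SESN1 fell by 0.87 on the log2 scale in control morulae relative to 8-cell embryos (SE 0.23, limma adjusted p = 0.00754), a call that held under all alternatives. In KDM6A morulae the log2 fold change against 8-cell embryos was -0.70 (SE 0.30, limma adjusted p = 0.0629), which passed under TPM, quantile or median-of-ratios scaling, in the fit of all 9 libraries and without KDM6A morula replicate 1 (adjusted p from 0.00958 to 0.0356). Over the libraries left out it lay between -0.94 and -0.44, with a limma adjusted p of up to 0.25. The log2 fold change of KDM6A over control morulae was 0.17 (95% interval -0.42 to 0.76), and its sign turned without KDM6A morula replicate 1.

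SESN2, which is induced by amino acid shortage and stress as well as by p53, did not reach the filter in any comparison and was not tested. Its levels were 1.29, 0.45 and 0.52 FPKM in KDM6A morulae, 0.56, 0.19 and 0.59 FPKM in control morulae and 3.01, 0.45 and 0.59 FPKM in 8-cell embryos. All 3 groups overlapped, and 8-cell replicate 1 was again the highest library, as for GADD45B. Among levels in KDM6A morulae, the order of the 9 genes by mean ran from CDKN1B (58.2 FPKM), MDM4 (25.4), MDM2 (14.7) and GADD45A (13.8) through GADD45B (7.41), CDKN2C (6.95), SESN1 (4.91) and CDKN1A (3.63) to SESN2 (0.753). In control morulae the 3 highest were CDKN1B, GADD45A and MDM4, at 50.8, 24.1 and 21.5 FPKM, and in 8-cell embryos GADD45A, MDM4 and CDKN2C, at 139, 60.98 and 50.97 FPKM. Neighbours in these orders that overlapped included MDM2 and GADD45A in KDM6A morulae, GADD45A and MDM4 in control morulae and MDM4 and CDKN2C in 8-cell embryos.

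Other genes of the p53 circuit were read from lists. Of 18 tested p53 regulators 0 were called between KDM6A and control morulae, against 0.164% of all genes. An unadjusted p under 0.05 was reached by 2, against 12.7% of all genes. One, higher in KDM6A morulae, is not described here. The other was RFWD2, a ubiquitin ligase for p53, at 19.0 ± 3.77 FPKM in KDM6A morulae and 27.9 ± 5.94 FPKM in control morulae (SD, n = 3 each, limma adjusted p = 0.364). PSME3, a proteasome activator, and HUWE1, another ubiquitin ligase, followed with adjusted p-values of 0.398 and 0.447. Relative to 8-cell embryos 6 of 18 rose and 2 fell in control morulae, where 42.7% of all genes were called higher and 27.1% lower. In KDM6A morulae 5 rose and 2 fell, against 41.1% and 25.6% of all genes. RCHY1, a ubiquitin ligase that is itself a p53 target, had 76.8 ± 3.83 FPKM in control morulae and 28.9 ± 4.64 FPKM in 8-cell embryos, and TPRKB, which binds a kinase that phosphorylates p53, 103 ± 9.24 and 52.9 ± 3.94 FPKM. USP7, which removes ubiquitin from p53 and MDM2, was lower, at 43.6 ± 2.68 FPKM in control morulae and 92.0 ± 18.0 FPKM in 8-cell embryos. The counts in control morulae ranged from 4 to 8 higher and 2 to 4 lower over the alternatives, with 4 higher under quantile normalization and 4 higher and 4 lower under median-of-ratios scaling, and in KDM6A morulae 2 were higher under that scaling. Without KDM6A morula replicate 1, when 725 of all genes were called between KDM6A and control morulae, 1 regulator was called higher and 1 lower.

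Of 20 other p53 targets tested between KDM6A and control morulae, 0 were called, against 0.164% of all genes. An unadjusted p under 0.05 was reached by 3, against 12.7% of all genes. FAS, a death receptor, stood at 1.55 ± 0.14 FPKM in KDM6A morulae and 0.76 ± 0.342 FPKM in control morulae, BTG2, an antiproliferative gene, at 1.51 ± 0.18 and 0.673 ± 0.718 FPKM, and POLH, a polymerase that copies past damaged bases, at 4.32 ± 1.58 and 2.43 ± 0.654 FPKM (limma adjusted p = 0.34 to 0.389). RRM2B, a ribonucleotide reductase subunit used in repair, followed at 1.23 ± 0.338 and 0.62 ± 0.396 FPKM (0.44). FAS and BTG2 passed the filter through the KDM6A morulae, the group where they were higher. The median log2 fold change of this list was -0.015, against -0.012 over all genes, and 8 of 20 were above 0. Without KDM6A morula replicate 1, when 725 of all genes were called between these groups, 0 of 18 were called higher and 1 lower. Relative to 8-cell embryos the list was split, with 8 higher and 8 lower of 22 tested in control morulae, against 42.7% and 27.1% of all genes, and 9 higher and 5 lower in KDM6A morulae, against 41.1% and 25.6%. PERP, a junction protein of p53-dependent cell death, was at 111 ± 20.2 FPKM in control morulae and 3.53 ± 0.439 FPKM in 8-cell embryos. XPC, a DNA damage sensor that passed the filter through the morulae, was at 7.72 ± 1.09 and 0.987 ± 0.411 FPKM. GADD45G, the remaining GADD45 relative, which passed the filter through the 8-cell libraries, was lower at 0.95 ± 0.144 FPKM in control morulae and 9.16 ± 3.31 FPKM in 8-cell embryos, as was DDB2, a partner of XPC in repair that passed the filter only through the 8-cell libraries, at 0.73 ± 0.0866 and 4.06 ± 0.953 FPKM.

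CDK inhibitors outside the 9 also differed in direction by gene. CDKN2D (p19), which like CDKN2C binds CDK4 and CDK6, had 5.37 ± 1.35 FPKM in control morulae and 13.9 ± 2.92 FPKM in 8-cell embryos (limma adjusted p = 0.00212). CDKN2A, whose locus encodes p16 and the MDM2 inhibitor ARF, was higher at 3.44 ± 1.01 and 1.06 ± 0.721 FPKM (0.00612), and CDKN3, a phosphatase that acts on CDKs, at 12.1 ± 1.19 and 6.89 ± 0.344 FPKM (0.0118). CDKN2A passed the filter through the control morulae. CDKN1C and CDKN2B were below the filter in all 3 comparisons. Of the 3 tested, 0 were called between KDM6A and control morulae, with none under an unadjusted p of 0.05. Over all genes these shares were 0.164% and 12.7%. Among cyclins, kinases and turnover factors of the CDK inhibitors, 4 of 19 rose and 11 fell in control morulae relative to 8-cell embryos, and 3 rose and 11 fell in KDM6A morulae. Over all genes 42.7% rose and 27.1% fell in control morulae and 41.1% and 25.6% in KDM6A morulae. CDK4, a kinase bound by CDKN2C, was higher at 66.8 ± 10.8 FPKM in control morulae and 10.98 ± 2.93 FPKM in 8-cell embryos, and its partner cyclin D2 (CCND2), which passed the filter only through the morulae, at 7.67 ± 3.52 and 0.35 ± 0.437 FPKM. CKS2, a small CDK-binding protein, was lower at 2366 ± 218 and 12117 ± 1028 FPKM, and CDK1, the mitotic kinase, at 210 ± 56.7 and 674 ± 97.6 FPKM. Between KDM6A and control morulae 0 of 18 were called, against 0.164% of all genes. Without KDM6A morula replicate 1, when 725 of all genes were called, 1 was higher and 1 lower. An unadjusted p under 0.05 was reached by 2 of 18, against 12.7% of all genes. These were CDK2, the kinase that CDKN1A and CDKN1B restrain, at 35.9 ± 4.95 FPKM in KDM6A morulae and 23.05 ± 7.11 FPKM in control morulae, and cyclin A2 (CCNA2) at 116 ± 27.7 and 166 ± 18.9 FPKM, both at a limma adjusted p of 0.303. CUL1 and DTL, parts of ubiquitin ligases that clear p27 and p21, had adjusted p-values of 0.43 and 0.494.

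GADD45A, SESN2 and CDKN1B also answer to the integrated stress response and to FOXO factors, so those genes were read as a list. Between KDM6A and control morulae 0 of 13 were called, against 0.164% of all genes. PPP1R15A (GADD34), the phosphatase subunit that ends the integrated stress response, alone had an unadjusted p under 0.05, against 12.7% of all genes. Its level was 6.14 ± 1.11 FPKM in KDM6A morulae and 4.02 ± 0.486 FPKM in control morulae (limma adjusted p = 0.371). TRIB3, EIF2AK3 and CHAC1 followed with adjusted p-values of 0.533 to 0.699. Relative to 8-cell embryos 6 of 14 rose and 6 fell in control morulae, against 42.7% and 27.1% of all genes, and 5 rose and 4 fell in KDM6A morulae, against 41.1% and 25.6%. FOXO1, which passed the filter only through the 8-cell libraries, was lower at 0.323 ± 0.21 FPKM in control morulae and 119 ± 34 FPKM in 8-cell embryos. FOXO3, which also passed through the 8-cell libraries, was lower at 1.29 ± 0.528 and 8.25 ± 2.5 FPKM. DDIT3 (CHOP), a stress transcription factor, was lower at 117 ± 34.8 and 698 ± 104 FPKM, while DDIT4, an mTORC1 inhibitor, was higher at 15.1 ± 4.28 and 1.58 ± 0.467 FPKM. For these 4 genes the limma adjusted p did not exceed 0.000194. Of 76 list genes called between control morulae and 8-cell embryos, marker genes included, 74 were still called under TPM, 72 under quantile and 71 under median-of-ratios scaling, and 0 turned sign.

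**Figure D4:**
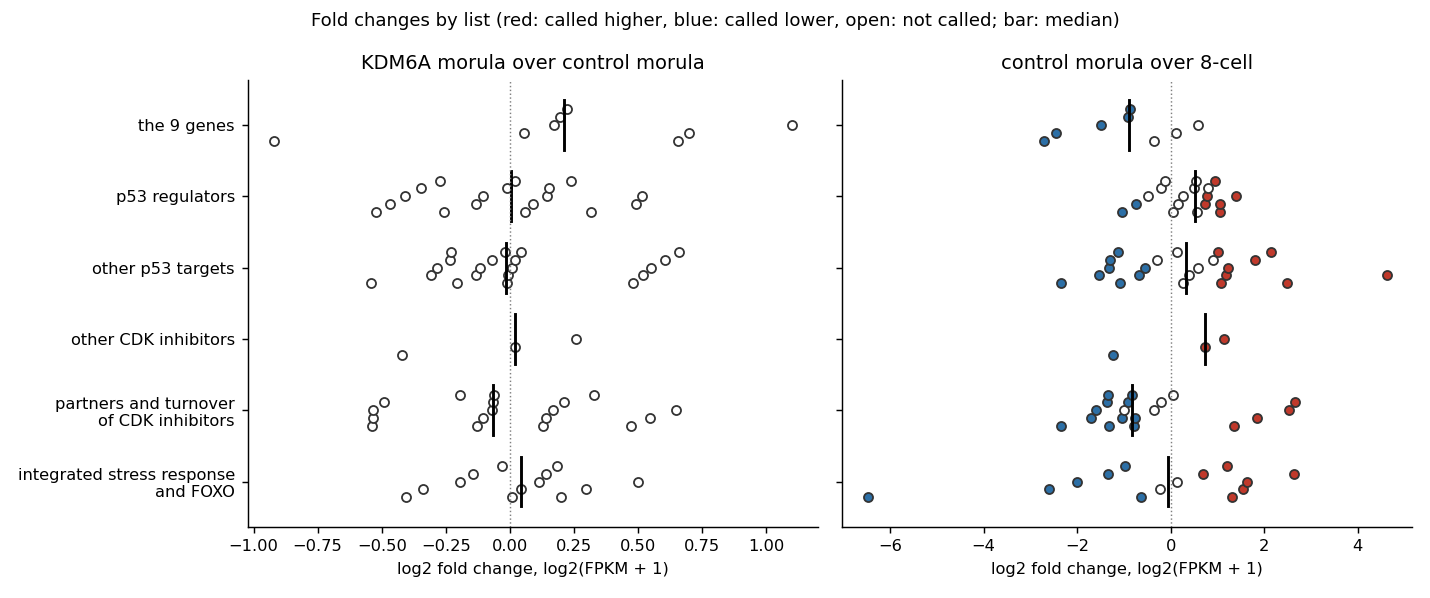
Log2 fold changes on the log2(FPKM + 1) scale of each tested gene of the 9 and of the 5 lists other than cell type markers, for KDM6A over control morulae (left) and control morulae over 8-cell embryos (right, wider axis); red and blue points were called higher and lower, open points were not called, and black bars are medians. No point is called on the left, and on the right each of those 5 lists holds calls in both directions while the calls among the 9 genes are all lower.

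The genes with profiles most like CDKN1A over the 9 libraries were GPX5, NXPE3 and ZNF691, with Pearson r of 0.907, 0.877 and 0.837 on log2(FPKM + 1) among 7261 candidates. GPX5 had 8.50, 10.13 and 7.92 FPKM in KDM6A morulae, 6.14, 6.90 and 3.98 FPKM in control morulae and 5.70, 7.09 and 8.47 FPKM in 8-cell embryos. For MDM2 the nearest were CDK5 (r of 0.92), IL2RG (0.908) and ZFAND2B (0.887). IL2RG separated the KDM6A morulae in the way MDM2 did, at 114.58 to 164.47 FPKM there, 63.59 to 73.09 FPKM in control morulae and 60.15 to 65.75 FPKM in 8-cell embryos. For CDKN1B they were CMTR1 (0.976), RETN (0.952) and FLT1 (0.951). These are descriptions over 9 libraries that fall into 3 groups, without a test.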

How the data were processed

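RNA from 9 pools or libraries of Bos taurus SCNT embryos was measured by RNA sequencing. The files deposited by the authors hold FPKM, per the file headers, to 2 decimals; depth is not given. The submitters' processing notes name RSEM 1.2.12, Bowtie2 2.2.5, StringTie 1.0.4, HISAT 0.1.6, bcl2fastq 2.16 and the UMD3.1 build; their roles and order, and how multi-mapping reads were handled, were not given in the sources used here. Names were checked against RefSeq of ARS-UCD2.0, another build, so no coordinates are given. Files were joined by gene identifier with pandas 2.3.3 and numpy 2.4.6 in Python 3.11.15. One control file held 3038 rows without an annotated identifier, which were not used. Each comparison was fitted on its 6 libraries with limma 3.58.1 (R 4.3.3) on log2(FPKM + 1), which understates changes of low genes, with a trended prior variance, a filter of 1 FPKM in 3 libraries and Benjamini-Hochberg adjustment over all genes tested (threshold 0.05). The fit was tested on simulated data. Exact permutation tests used scipy 1.17.1; figures used matplotlib 3.10.9. Genes named from lists are up to 4 with the smallest p in the KDM6A comparison and in the control stage comparison; a few that this rule names are not reported here. The 3 genes most like CDKN1A, CDKN1B and MDM2 were taken from those with a group mean of at least 5 FPKM. Members and lists were chosen with earlier results of these data known. Alternatives were a pseudocount of 0.1, no filter, 3 scalings, all 9 libraries in 1 fit, a replicate block and each library left out; those for the lists were chosen after seeing the data.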

Additional observations from a re-analysis of the deposited data

How the results depend on the processing

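The number of genes called between KDM6A and control morulae, 16, depended on the setting: it was 0 with no filter, 25 after rescaling to TPM, 28 after quantile normalization, 10 with all 9 libraries in 1 fit, and 1 to 725 over the libraries left out in turn (725 without KDM6A morula replicate 1). With the replicate number as a block it was 1. The numbers were not taken to pair the libraries: deviations of same-numbered KDM6A and control morulae correlated at -0.217, -0.242 and 0.16, and those of the stage comparisons at -0.0867 to 0.0831. Of the 9 genes, 0 to 1 were called in that comparison over the libraries left out, 4 to 6 between control morulae and 8-cell embryos and 3 to 6 between KDM6A morulae and 8-cell embryos, and the block changed no call among them. Stage comparisons of all genes gave 5286 to 7636 calls for control and 4993 to 7185 for KDM6A morulae. Of 312 alternative values for the 8 tested genes, 278 kept direction and side of the threshold, 15 lost a call, 10 gained one and 9 turned sign. Signs turned only for genes not called. For MDM2 in control morulae against 8-cell embryos the log2 fold change became -0.058 with TPM, -0.22 with quantile normalization, -0.14 with median-of-ratios scaling and -0.022 without control morula replicate 1. Between the morula groups it became -0.071 for SESN1 without KDM6A morula replicate 1, -0.17 and -0.16 for CDKN2C without KDM6A morula replicate 2 or control morula replicate 3, and -0.012 for MDM4 without control morula replicate 2. For GADD45B in KDM6A morulae against 8-cell embryos it became 0.16 without 8-cell replicate 1. Over the libraries left out, the other ends of these ranges were 0.49 for MDM4, 0.31 for CDKN2C and 0.43 for SESN1 between the morula groups, 0.22 for MDM2 in control morulae against 8-cell embryos and -0.51 for GADD45B in KDM6A morulae against 8-cell embryos. The cause of these changes was not tested. With 3 libraries per group and unknown depth, levels near 1 FPKM, as for CDKN1A and SESN2, carry an unknown counting error.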

Other observations

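Within the KDM6A morulae, replicate 1 had the lowest KDM6A level (35.65 FPKM, against 87.58 and 79.44 FPKM) and the highest levels of MDM2, CDKN1A, SESN1, SESN2 and GADD45A among the 3, while its MDM4 and CDKN1B levels were the lowest. CCNG1, cyclin G1, a p53 target that recruits a phosphatase to MDM2, was likewise highest there, at 379.74 FPKM against 181.16 and 163.93 FPKM in the other KDM6A morulae and 250.59 to 299.85 FPKM in control morulae. Other p53 targets went the opposite way, with POLH, PLK3 and TRIAP1 lowest of the KDM6A morulae in replicate 1. They had 2.57, 6.5 and 75.2 FPKM there, against 5.62, 16.64 and 88.33 FPKM in replicate 2 and 4.78, 8.41 and 103.53 FPKM in replicate 3. CDKN2A stood at 6.84 FPKM in that library, against 2.21 and 2.43 FPKM in the other KDM6A morulae and 2.65 to 4.58 FPKM in control morulae. These genes were picked with their values in view, and the 3 libraries of a group allow no test of the pattern.

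Among 8-cell embryos, replicate 1 had the highest GADD45B and SESN2 levels of all 9 libraries (16.79 and 3.01 FPKM) and GADD45G was also highest there, at 12.95 FPKM against 7.70 and 6.83 FPKM in the other 8-cell libraries. GADD45A did not share this order, with its lowest 8-cell level, 113.79 FPKM, in the same library. Among stress genes, ATF4 and ASNS were highest of the 8-cell libraries there, at 125.78 FPKM against 76.75 and 97.13 FPKM and at 66.81 FPKM against 42.95 and 43.40 FPKM, whereas DDIT3 and ATF3 were at 716.00 and 23.15 FPKM, within the range of the other 8-cell libraries. Other genes of that list differed: FOXO3 and NFE2L2 were highest there, and TRIB3, CHAC1, PPP1R15A and XBP1 were not. Genes in this paragraph, too, were picked with their values in view, and 3 libraries allow no test.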
